A study of Saccharomyces cerevisiae with 41 samples.

Results

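RNA from budding yeast carrying the csl4-ph allele was compared with RNA from a control strain in libraries depleted of ribosomal RNA. The comparison uses every feature of the deposited table of ribo-depleted libraries and 5 of the 41 libraries of the series, 3 labelled csl4-ph and 2 labelled control. Both groups are given as vegetative Saccharomyces cerevisiae cells of background BY4741, grown at 25 °C and then kept at 37 °C for 90 min before harvest. The labels do not explain the abbreviation ph and name no further marker or plasmid in either strain. They do not say whether replicates are separate cultures. The p-values therefore measure only the spread between replicate libraries, which may be technical. For comparisons within ribo-depleted RNA that spread was estimated over all 13 libraries of the table. Where needed, the csl4-ph libraries were also set against 2 libraries each from strains labelled dis3-1 and rrp6 deletion (same shift, same table), and the csl4-ph effect was set against that in oligo d(T)-selected RNA (3 csl4-ph and 3 control libraries). Libraries of strains labelled enp1-1 and srm1-ts (same shift, both tables) are not compared here. They entered the low-count filter, the scaling, the estimate of spread and the means over each table.

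The RNA exosome is the complex that degrades and trims RNA at its 3′ end in the nucleus and the cytoplasm. Csl4, Rrp4 and Rrp40 form the cap of its ring-shaped core, Dis3 (also called Rrp44) is its processive exoribonuclease and endonuclease, and Rrp6 is an exoribonuclease of the nuclear form. In the nucleus the complex works with the TRAMP complex, which adds short A tails, with the helicase Mtr4, and with the Nrd1-Nab3-Sen1 complex, which ends transcription of short noncoding RNAs. Its best known nuclear substrates are the excised spacers of the ribosomal RNA precursor, the 3′ extensions of snoRNAs and cryptic unstable transcripts (CUTs).

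The csl4-ph libraries held 16246942 to 18560210 estimated counts and the control libraries 12885166 and 15887796. Features of the rRNA class took 1.97% to 2.60% of the counts in csl4-ph and 0.587% to 0.683% in the control, and 10032 to 10109 of 11587 features were above 0 in csl4-ph, against 9487 and 9573 in the control. The description and extraction protocol of csl4-ph replicate 1 speak of polyA RNA and oligo d(T) enrichment, whereas both its title and the table holding it name ribosomal depletion. Over 10277 features, its log2 CPM (estimated counts scaled to library size) correlated at 0.984 or higher with the other ribo-depleted csl4-ph libraries and at 0.906 or lower with the csl4-ph oligo d(T) libraries. As a mating-type check, the alpha-factor gene MF(ALPHA)1 had 226, 227 and 222 CPM in the csl4-ph libraries, against 668 and 692 CPM in the control libraries, although BY4741 is known as an a strain. The 4 alpha-specific genes were lower in csl4-ph than in the control, with a median log2 fold change of -1.15.

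Of 10564 features tested, 3743 were higher (35.4%) and 4338 lower (41.1%) in csl4-ph at a Benjamini-Hochberg adjusted p under 0.05, the call used throughout. With a fold of at least 2 required as well, 2527 features were higher (23.9%) and 1927 lower (18.2%). These counts depend on the scaling. With scaling factors taken from open reading frames (ORFs) alone, 5189 features were higher and 2927 lower, and the median log2 fold change of all features was 0.41 in place of -0.03. So large a share was called that a call by itself says little, and the members of each group below are read against these percentages. The groups did not overlap for 8869 features (84%).

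Many features in the deposited table overlap. Of those tested 67.1% shared bases with another feature, and 862 had every library of 1 group at 0, of which 98.3% overlapped another feature. For such features the estimate of which reads belong to which feature can move as a whole between neighbours. Features that overlap no other are therefore given first, and overlapping features are also summed into loci, of which 39% of 5864 were higher and 50.9% lower. Overlap was taken by position on either strand. A locus sum can therefore mix RNA of both strands or of neighbouring genes, and it is not the level of 1 gene. Among 3477 features that overlap no other, 850 were higher (24.4%) and 2236 lower (64.3%), and 445 were at least 2-fold higher (12.8%) and 894 at least 2-fold lower (25.7%).

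Chromosomes III and XIV stood apart from the other 14. On chromosome III, 89 overlap-free ORFs were tested, of which 3 were higher and 75 lower, with a median log2 fold change of -1.49. On chromosome XIV, 221 were tested, of which 87 were higher and 107 lower, with a median of -0.09. The medians of the other 14 chromosomes ran from -0.78 on VII to -0.30 on I. In windows of 50 kb, medians lay between -1.79 and -0.98 on III, where all 7 windows were below the medians of the other 14 chromosomes, and between -0.36 and 1.17 on XIV, where 14 of 16 windows were above them and the other 2 within their range. The last window of each chromosome held few ORFs (5 on III and 6 on XIV).

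The shift on III came from the control libraries and that on XIV from the csl4-ph libraries. The median ORF of chromosome III lay 0.85 and 0.89 above its mean over the table (log2) in the control libraries and between 0.20 and 0.08 below it in the other 11 ribo-depleted libraries, the csl4-ph ones among them. In oligo d(T) RNA the control libraries showed no such excess, at 0.02 to 0.10. For chromosome XIV the median ORF lay 0.31 to 0.34 above its mean in the csl4-ph ribo-depleted libraries, and 0.27 to 0.28 above it in the csl4-ph oligo d(T) libraries, against 0.03 or less in every other library of the 2 tables. Copy number was not measured, and its part in these shifts was not tested. Without features on III and XIV, 3347 of 9596 were higher (34.9%) and 3969 lower (41.4%), so the totals hardly moved, but 9 of the 20 largest falls among overlap-free ORFs were on chromosome III. Genes on III or XIV are therefore marked as such.

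**Figure D1:**
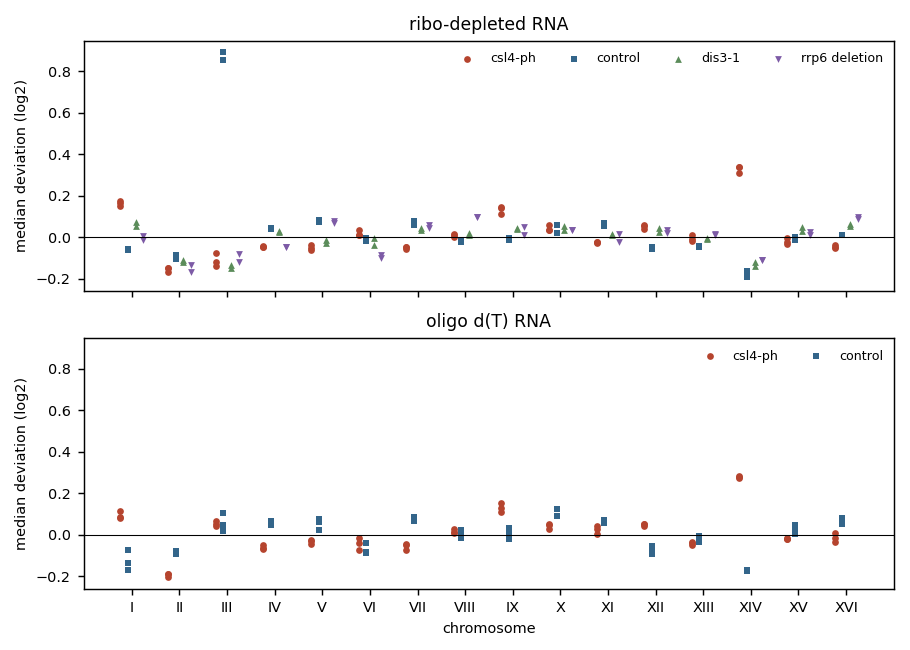
Median deviation of ORFs per chromosome and library (log2, each ORF centred on its mean over all libraries of its table; ORFs with a mean of at least 10 CPM), in ribo-depleted (top) and oligo d(T) (bottom) RNA. Each point is 1 library. On chromosome III the 2 control ribo-depleted libraries sit at 0.85 and 0.89, and on chromosome XIV the csl4-ph libraries sit at 0.31 to 0.34 (top) and 0.27 to 0.28 (bottom).

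CSL4 itself (YNL232W, chromosome XIV, 214923 to 215801, plus strand), the gene named by the allele, had 65.4, 63.8 and 66.5 CPM in the csl4-ph libraries, against 68.8 and 66.6 CPM in the control libraries. The log2 fold change of -0.05 ± 0.06 (SE) did not pass the test (adjusted p = 0.395), but it passed as higher under ORF scaling (0.44, adjusted p = 3.85e-05) and without rRNA features (0.14, adjusted p = 0.0401). Reads from a mutant allele can be counted like those of the wild type, so this level does not check the labels.

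The 5′ external transcribed spacer (5′ ETS) of the rRNA precursor, which is cut off early in ribosome assembly and degraded by the exosome with Mtr4, was higher in csl4-ph. The first 300 bases of the spacer are shown because the spacer is a well-known exosome substrate. They run from the transcription start on the minus strand of chrXII:458133-458432 (R64, RefSeq), with nothing in capitals.

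ETS1-1: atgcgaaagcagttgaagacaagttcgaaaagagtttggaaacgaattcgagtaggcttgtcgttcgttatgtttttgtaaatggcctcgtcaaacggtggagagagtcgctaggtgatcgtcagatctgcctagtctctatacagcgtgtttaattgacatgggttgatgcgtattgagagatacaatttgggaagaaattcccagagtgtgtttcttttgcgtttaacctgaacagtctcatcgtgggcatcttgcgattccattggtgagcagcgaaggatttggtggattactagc

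The feature ETS1-1 (chromosome XII, 457733 to 458432) had 15237, 14001 and 14690.4 CPM in the csl4-ph libraries, against 3487 and 3654 CPM in the control libraries. All 3 csl4-ph libraries were above both control libraries, and the log2 fold change was 2.04 ± 0.05 (SE, adjusted p = 5.76e-10). ETS1-1 overlaps the whole-precursor feature RDN37-1, so reads could be split between them. Summed over the 13 overlapping rDNA features of the locus, the log2 fold change was 1.34 ± 0.35 (SE, adjusted p = 0.00119). The short 3′ ETS fragment ETS2-1 had 39.9, 42.1 and 35.6 CPM in the csl4-ph libraries and was listed at 0 in both control libraries. Not every excised spacer was higher. ITS1-1 had 71.3, 63.7 and 68.2 CPM in the csl4-ph libraries, against 117 and 123 CPM in the control libraries (log2 fold change -0.83 ± 0.05, adjusted p = 3.23e-07), and ITS2-1 had 10.7, 12.3 and 10.9 CPM in the csl4-ph libraries, against 118 and 117 CPM in the control libraries (log2 fold change -3.37 ± 0.09, adjusted p = 6.69e-10). Both spacers lie inside RDN37-1 as well, and the sum over their locus went the other way. Since ribosomal RNA had been depleted, the yield of each rRNA piece also depends on that step, and its part in these differences was not tested.

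An unannotated feature near the rRNA genes, 12F-188 (chromosome XII, 460075 to 460602), overlaps no other feature. It had 288, 297 and 291 CPM in the csl4-ph libraries, against 7.86 and 8.46 CPM in the control libraries, which is a log2 fold change of 5.16 ± 0.10 (SE, adjusted p = 1.11e-10). It was higher still in dis3-1, with 747 and 797 CPM, and had 139 and 163 CPM in the rrp6 deletion.

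The unstable noncoding transcripts had a larger share of higher calls than ORFs. CUTs are short RNAs made from many promoters and quickly degraded by the nuclear exosome, and NUTs are transcripts that run on when Nrd1 is removed. Of 87 overlap-free CUTs tested, 63 were higher and 4 lower, with a median log2 fold change of 2.19, and 62 were at least 2-fold higher. Their median level was 2.61, 2.77 and 2.80 CPM in the csl4-ph libraries, against 0.598 and 0.522 CPM in the control libraries. Of 29 overlap-free NUTs, 28 were higher and 0 lower, with a median log2 fold change of 2.57. Their median level was 14.2, 15.3 and 16.05 CPM in the csl4-ph libraries, against 1.79 and 2.30 CPM in the control libraries. Both shares stand against 24.4% higher among all overlap-free features.

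With overlapping members included, 424 of 735 tested CUTs were higher and 63 lower (median 2.10), and 801 of 1459 NUTs were higher and 340 lower (median 0.64). The 2 other sets of unannotated features, numbered with ST and with F or R, are described by name only. Among overlap-free features 41 of 60 ST features were higher and 9 lower (median log2 fold change 1.32), and 87 of 133 F/R-numbered features were higher and 14 lower (median 1.14). Their median levels were 3.94, 3.62 and 3.18 CPM in the csl4-ph libraries, against 1.75 and 1.36 CPM in the control libraries for ST, and 7.41, 7.39 and 7.82 CPM in the csl4-ph libraries, against 2.65 and 2.30 CPM in the control libraries for F/R-numbered features. These features passed a filter on low counts over all 13 ribo-depleted libraries. A feature could pass it through any 1 group of libraries alone, also a group other than csl4-ph and control.

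**Figure D2:**
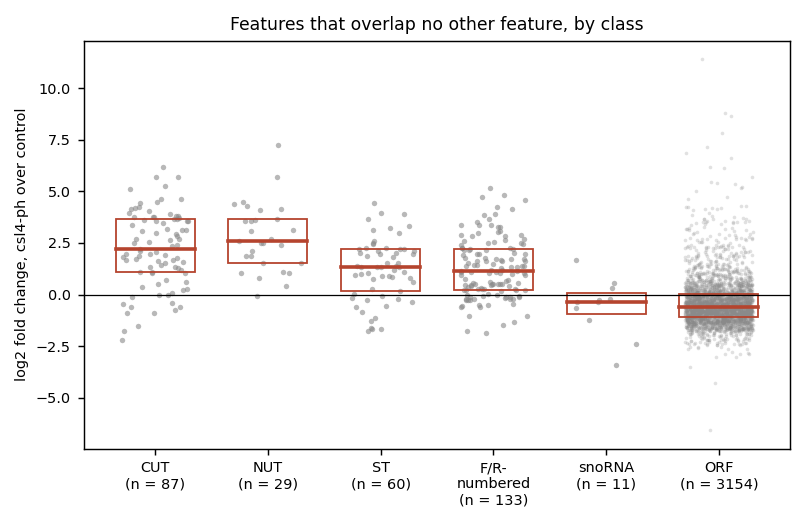
Log2 fold change (csl4-ph over control) of the tested features that overlap no other, by class. Each point is 1 feature, boxes span the quartiles and thick lines are medians, at 2.19 for 87 CUTs, 2.57 for 29 NUTs, 1.32 for 60 ST, 1.14 for 133 F/R-numbered features, -0.33 for 11 snoRNAs and -0.60 for 3154 ORFs.

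Among overlap-free CUTs with a mean of at least 10 CPM, the largest rise was that of a CUT next to the snoRNA gene snR189 on chromosome III. It is shown whole, on the plus strand of chrIII:178258-178482 (R64, RefSeq), because it was close to undetected in the control. The table does not give the strand on which it is transcribed, and nothing is in capitals.

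CUT_III_178258_178482: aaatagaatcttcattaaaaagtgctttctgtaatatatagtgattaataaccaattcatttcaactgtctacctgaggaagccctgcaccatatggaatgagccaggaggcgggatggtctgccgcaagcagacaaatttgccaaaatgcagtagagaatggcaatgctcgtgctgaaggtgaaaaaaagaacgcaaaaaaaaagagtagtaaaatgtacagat

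This CUT had 26.9, 29.5 and 25.00 CPM in the csl4-ph libraries, against 0.513 and 0.522 CPM in the control libraries. The csl4-ph libraries were all well above the control libraries (log2 fold change 5.70 ± 0.15 (SE, adjusted p = 6.16e-10)), on the chromosome whose ORFs were lower in csl4-ph. CUT_XII_109242_109666 had 37.6, 36.01 and 38.5 CPM in the csl4-ph libraries, against 2.82 and 2.51 CPM in the control libraries, a log2 fold change of 3.80 ± 0.08. CUT_XIV_579035_579443 (on chromosome XIV) was 3.77 ± 0.11 and CUT_XVI_622706_623218, 1.34 ± 0.05 on the same scale. The few CUTs that were lower mostly overlapped other features, but so did 90.0% of all 924 listed CUTs. Of the lower ones, CUT_XVI_691902_692158 had 5.89, 5.32 and 6.004 CPM in the csl4-ph libraries, against 28.4 and 28.4 CPM in the control libraries. Its locus sum was -1.77 ± 0.06 (SE, adjusted p = 2.75e-17).

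The NUT with the largest rise by the same rule was NUT0548 (chromosome XII, 877652 to 878188), with 30.5, 31.5 and 32.5 CPM in the csl4-ph libraries, against 0.598 and 0.627 CPM in the control libraries. Its log2 fold change was 5.67 ± 0.16 (SE, adjusted p = 9.1e-10). NUT0572, NUT0755 and NUT1123 were higher by 4.11 ± 0.15, 3.66 ± 0.34 and 3.57 ± 0.11. NUT0755 also shows the widest control spread of the 4, at 2.22 and 0.836 CPM, still far below the 18.9, 21.1 and 19.05 CPM in csl4-ph. Of the ST features, ST4788 had 24.3, 23.7 and 25.00 CPM in the csl4-ph libraries, against 3.85 and 5.22 CPM in the control libraries (2.43 ± 0.12), while ST5373, ST0304 (on chromosome III) and ST6895 were higher by 2.21 ± 0.16, 2.12 ± 0.06 and 1.51 ± 0.09.

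Among F/R-numbered features 14F-234 (chromosome XIV, 597738 to 598345) had 159.9, 155 and 159 CPM in the csl4-ph libraries, against 11.1 and 10.2 CPM in the control libraries, a log2 fold change of 3.88 ± 0.06 (SE, adjusted p = 3.73e-11), on a chromosome whose ORFs were on the high side in csl4-ph. 4F-384 and 13F-390 were higher by 4.73 ± 0.26 and 4.15 ± 0.10. In the other direction, 12R-250 had 6.13, 5.74 and 6.37 CPM in the csl4-ph libraries, against 19.1 and 24.8 CPM in the control libraries (-1.85 ± 0.16) and 5R-194 had 9.45, 10.7 and 10.8 CPM in the csl4-ph libraries, against 36.3 and 33.02 CPM in the control libraries (-1.75 ± 0.14).

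**Figure D3:**
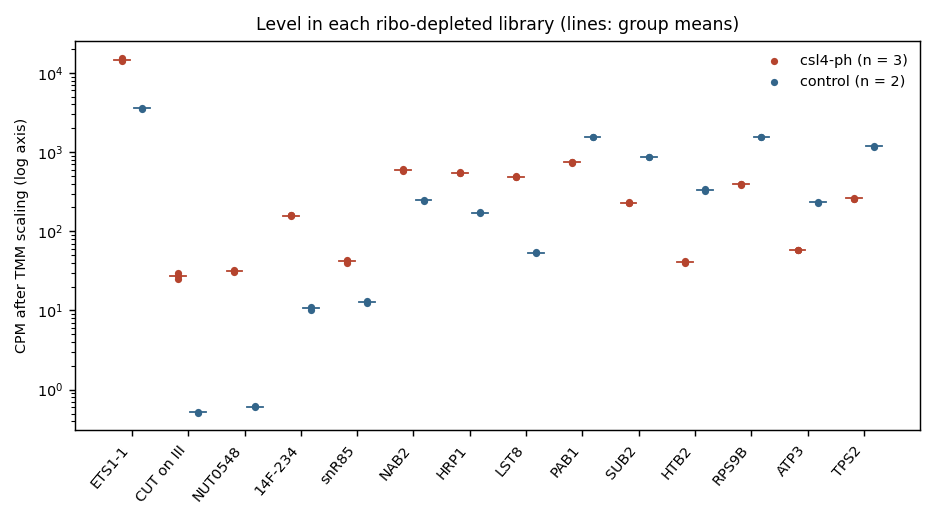
Level of 14 features in each ribo-depleted library (CPM after TMM scaling, log axis), csl4-ph (n = 3) left of control (n = 2). Points are libraries and lines are group means. The groups do not overlap for any of the 14: the first 8, from ETS1-1 to LST8, are higher in csl4-ph and the last 6, from PAB1 to TPS2, are lower.

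Mature snoRNAs, which guide the modification of ribosomal RNA and are trimmed at their 3′ ends by the nuclear exosome, did not share the rise of the unstable classes. Of 57 tested snoRNAs, 13 were higher and 30 lower, with a median log2 fold change of -0.42 (0.00 under ORF scaling). Among the 11 that overlap no other feature, 2 were higher and 5 lower, with a median of -0.33. Of the H/ACA snoRNAs, which guide pseudouridylation, 7 of 29 were higher and 20 lower (median -0.73). Of the box C/D snoRNAs, which guide methylation, 6 of 28 were higher and 10 lower (median -0.14, and 0.18 under ORF scaling). The H/ACA snoRNA snR85 was the overlap-free snoRNA that rose most by the naming rule and is shown whole, on the minus strand of chrXIII:67768-67938 (R64, RefSeq), with nothing in capitals.

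snR85: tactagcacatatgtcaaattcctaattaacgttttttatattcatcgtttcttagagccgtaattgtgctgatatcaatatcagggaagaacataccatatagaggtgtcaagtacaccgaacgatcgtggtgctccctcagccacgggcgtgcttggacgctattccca

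snR85 had 43.8, 41.8 and 39.7 CPM in the csl4-ph libraries, against 13.3 and 12.5 CPM in the control libraries, a log2 fold change of 1.69 ± 0.08 (SE, adjusted p = 3.98e-08). The U3 snoRNA, needed to cut the 5′ ETS, behaved differently. Its overlap-free copy snR17b (chromosome XVI, 281056 to 281517) had 663, 561 and 557 CPM in the csl4-ph libraries, against 965 and 893 CPM in the control libraries, with a log2 fold change of -0.65 ± 0.09 (SE, adjusted p = 9.35e-05), which did not pass under ORF scaling (-0.16, adjusted p = 0.126). The near-identical copy snR17a had 2594, 2207 and 2149 CPM in the csl4-ph libraries, against 4162 and 3677 CPM in the control libraries (-0.76 ± 0.11), and reads may be split between the 2 copies. The snoRNA snR189 (chromosome III) was at -0.33 ± 0.07, which turned to 0.16 under ORF scaling. snR4 (1 overlapping feature) had 373, 327 and 322 CPM in the csl4-ph libraries, against 147 and 158 CPM in the control libraries (1.17 ± 0.07).

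The U2 snRNA LSR1, a core RNA of the spliceosome (chromosome II, 680688 to 681862), had 12309.8, 12445 and 12013 CPM in the csl4-ph libraries, against 17745 and 18289.6 CPM in the control libraries. It was lower in csl4-ph by a log2 fold change of -0.56 ± 0.03 (SE, adjusted p = 5.54e-08), and close to level, at -0.07, under ORF scaling. The U6 snRNA snR6 had 13.2, 11.3 and 8.90 CPM in the csl4-ph libraries, against 3.25 and 2.40 CPM in the control libraries, which is 1.97 ± 0.26 at low counts.

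In a list of only 13 genes, the share of exosome genes called lower was not clearly above that of ORFs in general. Of 13 tested subunit genes 1 was higher and 9 lower (69.2%), with a median log2 fold change of -0.73. Over all 6244 tested ORFs 57.7% were lower, with a median of -0.45. Among the 11 subunit genes that overlap no other feature 1 was higher and 9 lower (81.8%, median -0.73). Over all overlap-free ORFs 69.8% were lower, with a median of -0.60. Under ORF scaling 5 of the 13 subunit genes were higher and 6 lower. The cap subunit gene RRP4 (YHR069C, chromosome VIII, 233579 to 234658, minus strand) was the 1 that rose, with 110.4, 103 and 102 CPM in the csl4-ph libraries, against 72.6 and 74.7 CPM in the control libraries (0.52 ± 0.05 (SE, adjusted p = 5.16e-06)). Its cap partner RRP40 had 37.7, 37.5 and 38.05 CPM in the csl4-ph libraries, against 61.6 and 63.6 CPM in the control libraries (-0.73 ± 0.04 (SE, adjusted p = 4.54e-08)). DIS3 had 226, 219 and 221 CPM in the csl4-ph libraries, against 268 and 261 CPM in the control libraries, a log2 fold change of -0.25 ± 0.03 (SE, adjusted p = 8.85e-06). RRP6 had 146, 138 and 146 CPM in the csl4-ph libraries, against 189.7 and 179.7 CPM in the control libraries, a log2 fold change of -0.37 ± 0.04 (SE, adjusted p = 2.77e-05). For DIS3 and RRP6 the libraries did not overlap between groups, but both signs turned under ORF scaling, to 0.24 and 0.12. The ring subunit gene RRP43 was lowest of the list at -1.83 ± 0.04, and lies on chromosome III. LRP1, whose product partners Rrp6, was at -0.64 ± 0.07.

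Of 14 cofactor genes 3 were higher and 9 lower (median -0.19, and 0.24 under ORF scaling). The helicase gene MTR4 (YJL050W, chromosome X, 342522 to 345743, plus strand) had 190.0, 185 and 185 CPM in the csl4-ph libraries, against 377 and 379.9 CPM in the control libraries, a log2 fold change of -1.02 ± 0.02 (SE, adjusted p = 1.12e-10). By contrast, the genes of the 2 zinc-knuckle subunits of TRAMP were higher: AIR1 had 45.03, 43.98 and 45.8 CPM in the csl4-ph libraries, against 35.7 and 34.6 CPM in the control libraries (0.35 ± 0.05), and AIR2 had 55.1, 54.9 and 58.03 CPM in the csl4-ph libraries, against 35.7 and 40.9 CPM in the control libraries (0.55 ± 0.06). NAB3 and SEN1, of the Nrd1-Nab3-Sen1 complex, were at -0.26 ± 0.03 and -0.25 ± 0.02, both of which turned positive under ORF scaling (0.23 and 0.24). Other ribonuclease and mRNA decay genes were lower in 13 of 18 cases and higher in 1 (median -0.83). Among the 12 that overlap no other feature 8 were lower (66.7%) and 1 higher (median -0.83). Over all overlap-free ORFs 69.8% were lower (median -0.60), so the share of lower calls did not stand out.

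NRD1, whose own mRNA is known to be cut short by the Nrd1 complex, could not be read from its ORF feature, which was listed at 0 in all 5 libraries while an overlapping feature held the reads. The sum over the NRD1 locus (2 features, chromosome XIV) was 879 ± 15.7 CPM in csl4-ph and 102 ± 1.97 CPM in the control (SD, n = 3 and 2), a log2 fold change of 3.11 ± 0.04 (SE, adjusted p = 3.85e-24). URA2, a pyrimidine synthesis gene with a known upstream noncoding start, was listed at 0 in the 3 csl4-ph libraries and at 1202 and 1117 CPM in the control libraries. Yet the sum over the 4 features of its locus was 2567 ± 73.4 CPM in csl4-ph and 2457 ± 17.2 CPM in the control (SD, n = 3 and 2), a log2 fold change of 0.06 ± 0.03 (SE, adjusted p = 0.0619). The IMD2 locus, a guanine nucleotide synthesis gene with the same kind of start, gave 0.10 ± 0.03 (SE, adjusted p = 0.00235) as a sum over 2 features, although its ORF feature was at 0, 0.479 and 0 CPM in csl4-ph and 165 and 166 CPM in the control. All 20 ORFs with the largest rises and falls by the naming rule overlap another feature and have 1 group at 0. Locus sums were scaled anew, which by itself raised the 3477 features that overlap no other by a median of 0.16 (log2). The sums for URA2 and IMD2 are smaller than this offset. Of the 10 falls 6 had a positive locus sum, and 4 with the offset taken off, while of the 10 rises 0 had a negative one, and 1 with the offset taken off. Apart from URA2, and RPS9A further below, they are not named for this reason.

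Genes for RNA-binding proteins of mRNA 3′ ends differed in both directions. NAB2 encodes the nuclear poly(A)-binding protein, which is known to hold down its own mRNA through a run of A residues past the end of its coding region and the exosome. The run is shown with 2 flanking bases on each side, with the run in capitals, from the minus strand of chrVII:278778-278807 (R64, RefSeq).

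NAB2: ttAAAAAAAAAAAAAAAAAAAAAAAAAAgt

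The run has 26 A residues and starts 140 bases past the end of the ORF. Of 6542 ORFs, 7 have a run as long within 200 bases of their end, and the median longest run is 5. NAB2 (YGL122C, chromosome VII, 278946 to 280523, minus strand) had 599.7, 583 and 608 CPM in the csl4-ph libraries, against 248 and 245 CPM in the control libraries. Each csl4-ph library was more than 2-fold above each control library, and the log2 fold change was 1.28 ± 0.03 (SE, adjusted p = 4.81e-10). HRP1, which encodes an mRNA cleavage and polyadenylation factor and whose own transcript is known to be cut short by early termination, had 566, 546 and 541 CPM in the csl4-ph libraries, against 175 and 169 CPM in the control libraries, a log2 fold change of 1.68 ± 0.03 (SE, adjusted p = 1.26e-10). PAB1, for the cytoplasmic poly(A)-binding protein, moved the other way with 759, 736 and 758 CPM in the csl4-ph libraries, against 1537 and 1537 CPM in the control libraries (-1.03 ± 0.03 (SE, adjusted p = 1.08e-09)).

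Of 19 genes for poly(A) binding and mRNA export, 4 were higher and 13 lower, and among the 12 that overlap no other feature 1 was higher and 11 were lower (median -0.98). SUB2, the RNA helicase that loads export factors, had 227, 235 and 225 CPM in the csl4-ph libraries, against 872 and 863 CPM in the control libraries, a log2 fold change of -1.92 ± 0.03 (SE, adjusted p = 1.73e-11). DBP5, the helicase that strips proteins from mRNA at the nuclear pore, was at -1.57 ± 0.02, and the export receptor gene MEX67 at -0.91 ± 0.04. YRA1, for an adaptor of Mex67, was at -0.14 ± 0.02 and turned to 0.35 under ORF scaling. DBP2 (chromosome XIV), for a DEAD-box helicase whose mRNA is also subject to feedback, had 1141, 1122 and 1124 CPM in the csl4-ph libraries, against 318 and 333 CPM in the control libraries (1.79 ± 0.03). NPL3, for an abundant mRNA-binding protein, had 1031, 1007 and 979.6 CPM in the csl4-ph libraries, against 501 and 508 CPM in the control libraries (0.99 ± 0.04, 1 overlapping feature).

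Of 3154 overlap-free ORFs, 628 were higher (19.9%) and 2203 lower (69.8%). The excess of lower calls depended on the scaling: under ORF scaling 1181 of the same ORFs were higher (37.4%) and 1545 lower (49.0%). At least 2-fold differences were higher in 245 (7.77%) and lower in 876 (27.8%). The median level of these ORFs was 59.7, 59.4 and 59.3 CPM in the csl4-ph libraries, against 84.6 and 83.9 CPM in the control libraries. The genes LST8, TAH11, YDR215C and YHR033W and the set of ORFs near chromosome ends were picked after their values were seen. LST8, which encodes a subunit of both TOR kinase complexes, is divergent from the Hsp40 chaperone gene SIS1, and 501 bases lie between the 2 ORFs. The 300 bases before LST8 are shown, on the plus strand of chrXIV:619767-620066 (R64, RefSeq), with 3 overlapping matches of the heat shock element (either strand) in capitals. The element is GAA, TTC and GAA with any 2 bases between neighbours. The motif occurs within 300 bases before 53 of 6542 ORFs (0.81%). Of the 50 tested ORFs with it 11 were higher and 30 lower (median -0.50), and of the 10 heat shock chaperone genes with it 2 were higher and 7 lower (median -0.37), so that LST8 is not typical of them.

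LST8: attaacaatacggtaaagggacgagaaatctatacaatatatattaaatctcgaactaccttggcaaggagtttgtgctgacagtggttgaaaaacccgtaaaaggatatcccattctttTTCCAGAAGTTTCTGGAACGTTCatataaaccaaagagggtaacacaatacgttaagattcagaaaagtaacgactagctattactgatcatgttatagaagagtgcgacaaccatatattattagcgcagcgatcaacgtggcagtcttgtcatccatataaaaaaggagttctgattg

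LST8 (YNL006W, chromosome XIV, 620067 to 620978, plus strand) had 504, 482 and 482 CPM in the csl4-ph libraries, against 55.3 and 52.7 CPM in the control libraries. The csl4-ph libraries were all far above the control libraries, at a log2 fold change of 3.18 ± 0.04 (SE, adjusted p = 9.88e-12). SIS1, read the other way, averaged 233 ± 1.02 CPM in csl4-ph and 187 ± 2.91 CPM in the control (SD, n = 3 and 2), a log2 fold change of 0.32 ± 0.02 (SE, adjusted p = 6.65e-07). A pair of the same layout is TAH11, a replication licensing gene, beside the mitochondrial Hsp70 gene SSC1, with 445 bases between them. TAH11 had 588, 562 and 573 CPM in the csl4-ph libraries, against 82.5 and 85.99 CPM in the control libraries (2.77 ± 0.03 (SE, adjusted p = 6.51e-12)), while SSC1 averaged 1147 ± 20.6 CPM in csl4-ph and 1292 ± 13.2 CPM in the control, a log2 fold change of -0.17 ± 0.02 (SE, adjusted p = 8.29e-05).

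The ORF YDR215C, which has no assigned role, had 133, 129 and 136 CPM in the csl4-ph libraries, against 2.65 and 3.76 CPM in the control libraries (5.39 ± 0.09 (SE, adjusted p = 5.92e-11)), and YHR033W had 366, 356 and 386 CPM in the csl4-ph libraries, against 21.6 and 21.3 CPM in the control libraries (4.10 ± 0.07 (SE, adjusted p = 3.92e-11)). ORFs with no entry in the RefSeq annotation, many of them dubious reading frames, were called in both directions, 190 higher and 179 lower of 555 tested (median log2 fold change 0). Of the 65 that overlap no other feature 34 were higher and 10 lower, with a median of 1.43, or 0.85 with features at 0 in 1 group set at their bound. The share of higher calls also differed by level. It was 228 of 789 in the quartile of lowest mean level and 99 of 789 in the highest.

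ORFs near chromosome ends were another group on the high side. Of 144 ORFs within 10 kb of an end 83 were higher (57.6%) and 18 lower, with a median log2 fold change of 1.58. Of 6100 farther away 1466 were higher (24%) and 3585 lower, with a median of -0.47. Among the overlap-free ones, 41 of 76 were higher near the ends, and 5 of the 20 largest rises of overlap-free ORFs lay there. Genes near chromosome ends often have near-identical copies, so single values are uncertain and no gene is named.

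Histone genes had the lowest median among the gene lists with at least 10 tested members. All 10 tested members were lower, with a median log2 fold change of -2.26 (8 of 8 and -2.38 among those that overlap no other feature). HTB2, for histone H2B (YBL002W, chromosome II, 236492 to 236887, plus strand), had 40.5, 40.3 and 41.9 CPM in the csl4-ph libraries, against 338 and 322 CPM in the control libraries, a log2 fold change of -3.01 ± 0.03 (SE, adjusted p = 5.83e-12). Its neighbour HTA2, for H2A, had 45.3, 44.4 and 40.4 CPM in the csl4-ph libraries, against 357 and 355 CPM in the control libraries (-3.04 ± 0.05). HTA1 and HTB1, the second pair of these genes, were at -2.22 ± 0.04 and -2.31 ± 0.03, and the H4 gene HHF1 at -2.58 ± 0.03. Copies of histone genes are alike in sequence, so reads may be exchanged among them. Genes of the G1/S transition of the cell cycle were lower in 12 of 16 cases and higher in 2 (median -0.85). Among the 7 that overlap no other feature 5 were lower and 1 higher (median -0.32). Over all overlap-free ORFs 69.8% were lower, with a median of -0.60, so this list did not stand out. The G1 cyclin gene CLN2 had 37.5, 36.6 and 38.1 CPM in csl4-ph and 129 and 134 CPM in the control (-1.82 ± 0.03).

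Genes for the translation machinery were lower almost throughout. Of 137 ribosomal protein genes 124 were lower and 9 higher (median log2 fold change -1.56), and among the overlap-free ones 97 of 101 were lower and 4 higher. RPS9B had 401, 387 and 390.3 CPM in the csl4-ph libraries, against 1556 and 1555 CPM in the control libraries (-1.99 ± 0.03 (SE, adjusted p = 2.75e-11)), and RPL6A was at -1.64 ± 0.02. Ribosomal protein genes exist largely as near-identical pairs, so a single copy is uncertain. Of 31 translation factor genes 29 were lower and 0 higher (median -1.22). The initiation factor gene TIF1, for eIF4A, had 471, 470.3 and 485 CPM in the csl4-ph libraries, against 1416 and 1394 CPM in the control libraries (-1.56 ± 0.03), and TIF11, for eIF1A, was at -1.66 ± 0.02.

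Of 59 ribosome biogenesis genes 53 were lower and 3 higher, with a median of -0.90, and 15 of 18 genes for RNA polymerase I and III subunits were lower and 3 higher (median -0.77). NOP7, for a factor of the large ribosomal subunit, is taken as the example, and the 250 bases before its ORF are shown on the plus strand of chrVII:695167-695416 (R64, RefSeq), with the PAC motif GCGATGAG in capitals.

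NOP7: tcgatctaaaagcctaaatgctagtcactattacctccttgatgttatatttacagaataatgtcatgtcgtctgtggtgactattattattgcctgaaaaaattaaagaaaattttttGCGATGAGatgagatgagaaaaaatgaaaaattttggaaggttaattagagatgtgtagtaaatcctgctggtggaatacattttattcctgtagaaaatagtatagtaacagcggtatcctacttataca

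NOP7 had 191, 188 and 190.3 CPM in the csl4-ph libraries, against 401 and 399 CPM in the control libraries, with a log2 fold change of -1.07 ± 0.02 (SE, adjusted p = 3.96e-11). The 3 csl4-ph libraries, with an SD of 1.53 CPM, lay below both control libraries. The letters GCGATGAG, on either strand, stand within 300 bases before 33 of the 59 ORFs (55.9%), against 248 of 6542 ORFs in all (3.79%). With the motif 27 of 33 were lower and 3 higher (median -0.86), and without it 26 of 26 were lower (median -0.96). RPA190, for the largest subunit of RNA polymerase I, had 756, 764 and 785 CPM in the csl4-ph libraries, against 1357 and 1332 CPM in the control libraries (-0.81 ± 0.02).

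Proteasome genes were lower without exception among the 32 tested, at a median log2 fold change of -0.83. The 250 bases before RPN6, a lid subunit gene, are shown on the minus strand of chrIV:286696-286945 (R64, RefSeq), with the Rpn4-binding motif GGTGGCAAA in capitals.

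RPN6: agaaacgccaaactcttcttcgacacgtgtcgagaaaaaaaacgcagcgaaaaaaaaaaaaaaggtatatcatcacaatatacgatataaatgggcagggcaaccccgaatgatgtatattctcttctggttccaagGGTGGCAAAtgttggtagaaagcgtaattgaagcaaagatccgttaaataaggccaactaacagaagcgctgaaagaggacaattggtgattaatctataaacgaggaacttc

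RPN6 had 167, 169 and 165 CPM in the csl4-ph libraries, against 336 and 341 CPM in the control libraries, a log2 fold change of -1.02 ± 0.02 (SE, adjusted p = 2.65e-10). The motif, on either strand, stands before 27 of the 32 proteasome ORFs (84.4%), against 78 of 6542 ORFs (1.19%). Members with it were at a median of -0.83 and the 5 without it at -0.74. Over all 77 tested ORFs with the motif, 55 were lower and 17 higher.

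Under ORF scaling the lower calls numbered 10 of 10 for histones, 119 of 137 for ribosomal proteins, 28 of 31 for translation factors, 42 of 59 for ribosome biogenesis and 28 of 32 for the proteasome. The medians were -1.78, -1.07, -0.73, -0.41 and -0.34, all still below 0, against 0.02 for all ORFs. In ribo-depleted libraries, less RNA per cell and a larger share for other RNAs cannot be told apart.

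**Figure D4:**
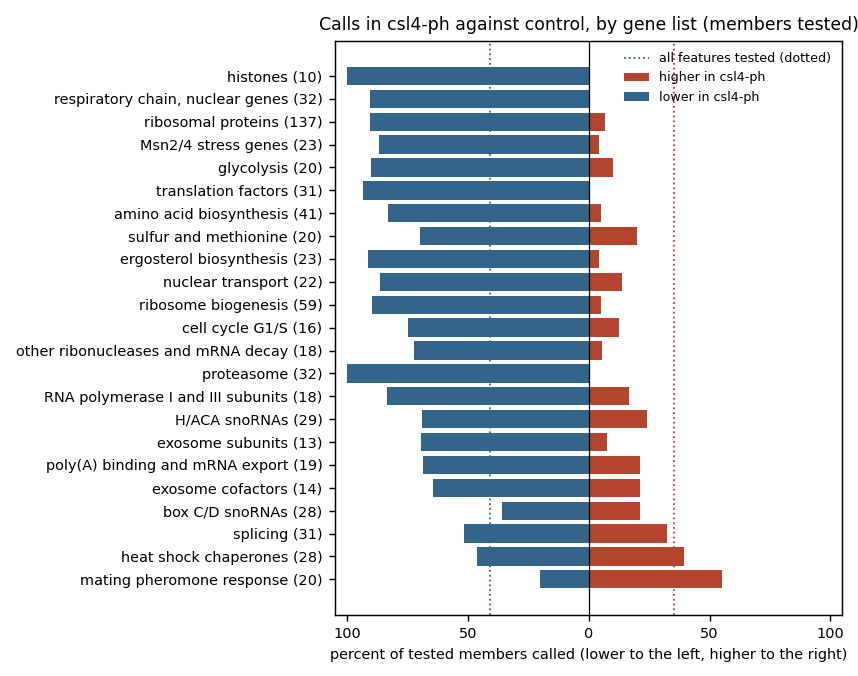
Share of tested members called higher (right) and lower (left) in csl4-ph, for 23 gene lists with the number of members tested in brackets. Dotted lines mark the shares over all 10564 features (35.4% higher, 41.1% lower). All 10 histone and all 32 proteasome genes are lower, while 11 of 20 mating pheromone response genes are higher.

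Energy metabolism genes were on the low side too. Of 32 nuclear genes of the respiratory chain 29 were lower and 0 higher, with a median log2 fold change of -1.66. The ATP synthase genes ATP3 (58.3, 58.5 and 57.6 CPM in the csl4-ph libraries, against 237 and 229 CPM in the control libraries) and ATP2 were at -2.00 ± 0.02 and -1.77 ± 0.03, and COX7, for a subunit of cytochrome c oxidase, at -2.43 ± 0.08. Of 20 glycolysis genes 18 were lower and 2 higher (median -1.28). PGI1, for phosphoglucose isomerase, had 1465, 1424 and 1428 CPM in the csl4-ph libraries, against 3505 and 3472 CPM in the control libraries (-1.28 ± 0.03), and the triose phosphate isomerase gene TPI1 was at -1.29 ± 0.03.

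Amino acid biosynthesis genes were lower in 34 of 41 cases and higher in 2 (median -1.01). LEU1, a leucine synthesis gene, had 128, 128 and 122 CPM in the csl4-ph libraries, against 588 and 587 CPM in the control libraries (-2.22 ± 0.02). Of 20 genes of sulfur and methionine metabolism 14 were lower and 4 higher, with MET6 at -1.60 ± 0.03. Of 23 ergosterol synthesis genes 21 were lower and 1 higher, with ERG13 at -1.84 ± 0.03. PMI40, for an early enzyme of mannose-sugar supply, had 60.1, 58.3 and 60.98 CPM in the csl4-ph libraries, against 428 and 407 CPM in the control libraries (-2.80 ± 0.04).

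Stress genes split. Of 23 genes typical of the Msn2/4 response 20 were lower and 1 higher (median -1.39). The trehalose phosphatase gene TPS2 had 258, 255 and 267 CPM in the csl4-ph libraries, against 1192 and 1169 CPM in the control libraries (-2.18 ± 0.03 (SE, adjusted p = 9.88e-12)), whereas TSL1, for a regulatory subunit of the same enzyme complex, had 1484, 1451 and 1520.3 CPM in the csl4-ph libraries, against 857 and 868 CPM in the control libraries (0.78 ± 0.03 (SE, adjusted p = 3.61e-09)). STF2, a small stress-induced gene, had 63.3, 59.7 and 60.3 CPM in the csl4-ph libraries, against 435 and 447 CPM in the control libraries (-2.85 ± 0.03). Heat shock chaperone genes were higher in 11 of 28 cases and lower in 13, with a median of 0.03. Among the 14 that overlap no other feature 3 were higher (21.4%) and 9 lower (64.3%), with a median of -0.20. Over all overlap-free ORFs 19.9% were higher and 69.8% lower (median -0.60), so the calls of this list were close to that background. HSP104, the disaggregase, had 784, 790.1 and 788 CPM in the csl4-ph libraries, against 2126 and 2085 CPM in the control libraries (-1.42 ± 0.02), while the Hsp70 gene SSA4 had 387, 361 and 370.3 CPM in the csl4-ph libraries, against 112 and 116 CPM in the control libraries (1.71 ± 0.04, 1 overlapping feature) and the Hsp90 gene HSP82 was at 0.74 ± 0.02 (1 overlapping feature, near-identical to HSC82). Both groups had been at 37 °C for 90 min.

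Mating genes are given beside the mating-type values above. Of 20 pheromone response genes 11 were higher and 4 lower (median 0.47). FUS2, a cell fusion gene, had 45.6, 52.5 and 52.2 CPM in the csl4-ph libraries, against 13.3 and 13.5 CPM in the control libraries (1.90 ± 0.10), and the kinase gene FUS3 was at 0.50 ± 0.03. Of 7 a-specific genes 6 were higher and 0 lower, from low levels: the alpha-factor receptor gene STE2 had 14.4, 15.6 and 13.3 CPM in the csl4-ph libraries, against 7.43 and 7.31 CPM in the control libraries (0.97 ± 0.12), and the a-factor gene MFA1 3.09, 2.66 and 3.26 CPM in the csl4-ph libraries, against 0.171 and 0.313 CPM in the control libraries (3.64 ± 0.36). The alpha-specific agglutinin gene SAG1 was at -0.69 ± 0.03 and the a-factor receptor gene STE3 at -0.99 ± 0.04. Among selection markers, MET17, a methionine synthesis gene that BY4741 lacks, had 92.5, 87.9 and 93.1 CPM in the csl4-ph libraries, against 548 and 530.2 CPM in the control libraries (-2.56 ± 0.05 (SE, adjusted p = 5.99e-10)). LYS2, a lysine synthesis gene that BY4741 carries, was listed at 0 in the 3 csl4-ph libraries and had 0.769 and 0.313 CPM in the control libraries. A part of these strain markers in the other differences was not tested.

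The csl4-ph change was then compared with the csl4-ph change in oligo d(T)-selected RNA, as an interaction in 1 fit. Of 10790 features, 2928 had a higher change in ribo-depleted RNA (27.1%) and 2987 a lower one (27.7%). Among 3490 overlap-free features the shares were 28.1% and 41.7%. On chromosome III 80 of 89 overlap-free ORFs had a lower and 0 a higher change in ribo-depleted RNA (median -1.17), against medians of -0.24 to -0.01 on the other 14 chromosomes outside III and XIV. The excess on III was present in the ribo-depleted control only.

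Oligo d(T) retains RNAs that carry an A tail, and stable noncoding RNAs showed large differences between the selections. Of 29 H/ACA snoRNAs 27 had a lower change in ribo-depleted RNA, at a median of -4.33. After oligo d(T) selection snR189 had 121, 112 and 119.5 CPM in csl4-ph, against 7.98, 5.89 and 5.54 CPM in the control, with a log2 fold change of 4.17 ± 0.12 (SE, adjusted p = 1.08e-08), against -0.33 ± 0.07 in ribo-depleted RNA (interaction -4.49 ± 0.13). The U3 copy snR17b was at 1.39 ± 0.10 in oligo d(T) RNA and -0.65 ± 0.09 in ribo-depleted RNA (interaction -2.03 ± 0.15). LSR1 was at 1.67 ± 0.09 and -0.56 ± 0.03 in the same order.

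Some mRNAs also had opposite signs. After oligo d(T) selection NAB2 had 191, 192 and 198 CPM in csl4-ph, against 237, 256 and 278 CPM in the control, with a log2 fold change of -0.41 ± 0.05 (SE, adjusted p = 0.000118). The control libraries were above the csl4-ph libraries there and below them in ribo-depleted RNA, and the interaction was 1.70 ± 0.06 (SE, adjusted p = 5.51e-12). NPL3 was at -0.98 ± 0.05 in oligo d(T) RNA and 0.99 ± 0.04 in ribo-depleted RNA (interaction 1.99 ± 0.07 (SE, adjusted p = 2.08e-12)). For HRP1 the change was smaller in oligo d(T) RNA (0.56 ± 0.03) than in ribo-depleted RNA (interaction 1.13 ± 0.05 (SE, adjusted p = 1.39e-11)), and PAB1 did not pass the test of the difference (0.09 ± 0.06, adjusted p = 0.217). LST8 was at 1.13 ± 0.03 in oligo d(T) RNA (interaction 2.06 ± 0.05 (SE, adjusted p = 8.77e-14)).

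By list, overlap-free ribosome biogenesis genes had a lower change in ribo-depleted RNA in 40 of 46 cases and a higher one in 4 (median -0.63), and nuclear transport genes in 12 of 14 and 0 (median -0.54). Histone genes had a higher one in 8 of 8 (median 0.67), and ribosomal protein genes in 78 of 101, with 3 lower (median 0.27). RPA190 was at -0.81 ± 0.02 in ribo-depleted RNA and 0.31 ± 0.04 in oligo d(T) RNA (interaction -1.10 ± 0.04 (SE, adjusted p = 9.59e-12)). Among overlap-free ORFs the interaction differed by length. Its median was 0.07 in the quartile of shortest ORFs and -0.38 in that of longest, and the part of fragment length or integrity in it was not tested.

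**Figure D5:**
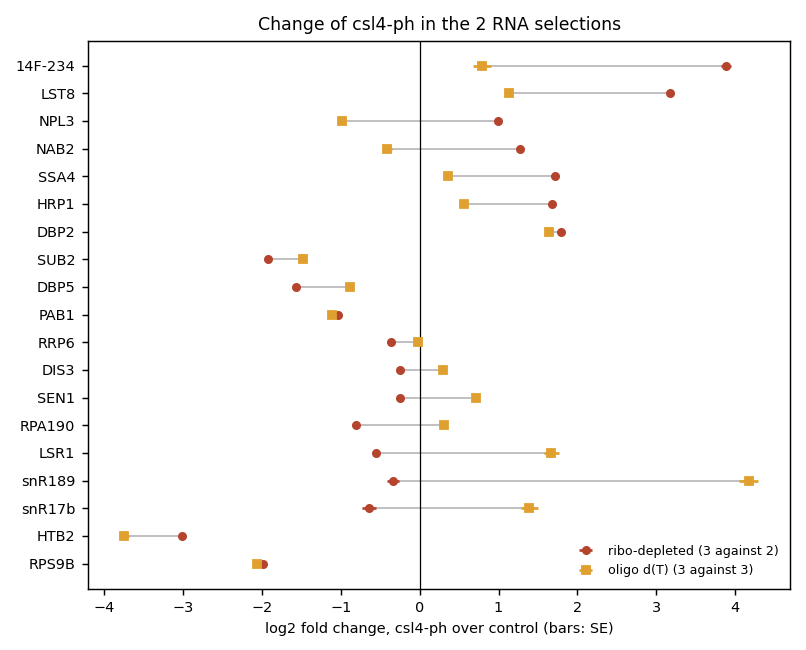
Log2 fold change of csl4-ph over control (± SE) for 19 features in ribo-depleted (circles, 3 against 2 libraries) and oligo d(T) RNA (squares, 3 against 3). NAB2 and NPL3 are above 0 in ribo-depleted RNA only, while LSR1, snR189, snR17b, RPA190, DIS3 and SEN1 are above 0 in oligo d(T) RNA only. The ribo-depleted values of snR189, DIS3, SEN1 and RRP6 change sign under ORF scaling.

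Last, csl4-ph was set directly against the other 2 exosome strains. The strain markers differ: MF(ALPHA)1 averaged 225 CPM in csl4-ph, 0.583 in dis3-1 and 0.397 in the rrp6 deletion, STE2 14.4, 352 and 8.71 CPM, and the haploid gene FUS3 107, 93.1 and 7.43 CPM. LYS2 was listed at 0 in csl4-ph and averaged 395 CPM in dis3-1 and 456 CPM in the rrp6 deletion. Strain background and allele cannot be told apart in these contrasts.

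Against dis3-1, 2839 features were higher in csl4-ph (26.9%) and 3090 lower (29.3%), and 768 (7.27%) and 495 (4.69%) by at least 2-fold. Among overlap-free features 24.6% were higher and 46.6% lower. Unstable classes were called in both directions: of 87 overlap-free CUTs 14 were higher and 16 lower, and of 29 NUTs 15 were higher and 4 lower. Histone genes were lower in csl4-ph in 9 of 10 cases (median -1.26) and ribosome biogenesis genes in 52 of 59, with 2 higher (median -0.49), while 18 of 28 heat shock genes were higher and 3 lower (median 0.53). NAB2 had 599.7, 583 and 608 CPM in csl4-ph and 349 and 347 CPM in dis3-1 (0.78 ± 0.03 (SE, adjusted p = 6.39e-08)), and ETS1-1 15237, 14001 and 14690.4 and 18121 and 18684 CPM in the same order (-0.33 ± 0.05 (SE, adjusted p = 0.000332)).

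Against the rrp6 deletion, 3476 features were higher in csl4-ph (32.9%) and 3519 lower (33.3%), and 1565 (14.8%) and 1055 (9.99%) by at least 2-fold. Among overlap-free features 27.1% were higher and 54.8% lower. RRP6 had 146, 138 and 146 CPM in csl4-ph and 39.9 and 38.1 CPM in the deletion strain (1.88 ± 0.05), so that some reads were still assigned to RRP6 there. Of 57 snoRNAs 2 were higher in csl4-ph and 45 lower (median -1.23), with all 11 overlap-free ones lower. snR85 had 43.8, 41.8 and 39.7 CPM in csl4-ph and 116 and 101 CPM in the rrp6 deletion (-1.38 ± 0.07 (SE, adjusted p = 6.88e-08)). ETS1-1 went the other way, with 7749 and 7405 CPM in the rrp6 deletion (0.95 ± 0.05 (SE, adjusted p = 1.39e-07)), and so did 61 of 133 overlap-free F/R-numbered features, with 18 lower. NAB2 had 381 and 373 CPM in the rrp6 deletion, below all csl4-ph libraries (0.66 ± 0.03 (SE, adjusted p = 4.93e-08)). Ribosomal protein genes were lower in csl4-ph in 125 of 137 cases and higher in 5 (median -1.02).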

How the data were processed

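The deposited values are estimated counts, 1 per feature and library, made by the authors with Salmon 0.12.0 after trimming with Trimmomatic 0.39 on features of the sacCer3 (R64) build, per the submitters' processing notes. Bedtools, DESeq and DESeq2 1.26.0 are named there without a role, and how shared sequence was handled is not given in the sources used here. RNA came from milled frozen cells, and libraries were stranded and read as pairs of 50 bases, per the labels' protocols. Of 6542 ORF names 5882 matched a RefSeq entry.

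Estimated counts were rounded and tested with edgeR 4.0.16 in R 4.3.3: quasi-likelihood F-test, 2-sided, TMM scaling, filterByExpr, all 13 ribo-depleted libraries in 1 fit, Benjamini-Hochberg adjustment over all features tested. The interaction with RNA selection used both tables, 10790 features, in 1 fit. The common biological coefficient of variation was 0.219. CPM values are scaled by TMM, and 3 counts are 0.142 to 0.160 CPM in csl4-ph and 0.256 to 0.313 CPM in the control libraries. Columns not used numbered 0, and 0 pairs of libraries were identical. The code was tested on simulated data.

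The comparison, members and 34 gene lists were chosen with earlier results of these data known. Named genes are CSL4, DIS3, RRP6, NAB2, PAB1, NRD1, HRP1, IMD2 and strain markers, ORFs and noncoding features with the largest changes at a mean of at least 10 CPM and groups that do not overlap, exosome subunits, and the 4 members of each list with the smallest adjusted p. The genes AIR1, AIR2, COX7, HSP82, HTA1, HTA2, LST8, MEX67, NAB3, NPL3, PMI40, SEN1, SIS1, SSC1, STF2, TAH11, TSL1, YRA1, YDR215C, YHR033W and snR17a and the rRNA spacers lie outside this rule and were picked after their values were seen. Locus sums join features that overlap by position, whatever their strand. Locus sums, the overlap-free subset, the chromosome medians and position sets were added after seeing the data. Sequences were read from the RefSeq R64 genome.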

Additional observations from a re-analysis of the deposited data

Results flagged for a closer look

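For 6 of the genes followed by name, the csl4-ph change differed between ribo-depleted and oligo d(T) RNA by the interaction in edgeR. The difference, as ribo-depleted change minus oligo d(T) change in log2, was 1.70 ± 0.06 (SE, adjusted p = 5.51e-12) for NAB2 and 1.13 ± 0.05 (SE, adjusted p = 1.39e-11) for HRP1. It was -0.53 ± 0.05 (SE, adjusted p = 1.04e-07) for DIS3 and -0.33 ± 0.06 (SE, adjusted p = 0.000178) for RRP6. For the strain markers it was 0.44 ± 0.05 (SE, adjusted p = 3.96e-06) for MF(ALPHA)1 and -0.38 ± 0.07 (SE, adjusted p = 0.000616) for MET17. NAB2 was the only one of the 6 genes, apart from DIS3, whose change had opposite signs in the 2 selections, and the ribo-depleted change of DIS3 turned positive under ORF scaling.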

How the results depend on the processing

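Scaling on ORFs alone moved the number of features at least 2-fold lower to 848, and left the other counts within 1.5 times. Refitted on overlap-free features alone, which changes both scaling and the features tested, 1525 were higher and 1512 lower against the control, 674 and 298 by at least 2-fold, 1437 and 1017 in the interaction, 1309 and 1296 against dis3-1, and 1518 and 1471 against the rrp6 deletion. Locus sums gave 2287 higher, and 1130 higher and 920 lower by at least 2-fold. Median-ratio scaling, DESeq2, removal of rRNA features, both other filters and the compared groups alone kept every one of these counts within 1.5 times. So did leaving out chromosomes III and XIV. That setting only dropped features from the same fit (9596 of 10564 were kept against the control), so the counts could hardly move.

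Some list medians changed sign. Under ORF scaling they became 0.24 (exosome cofactors), 0.00395 (spliceosomal and other stable RNAs, also as a class), 0.0636 (haploid-specific genes), 0.37 (splicing), 0.0213 (all ORFs) and 0 (snoRNAs). Only 2 stable RNAs overlap no other feature, LSR1 at -0.56 and snR6 at 1.97 (low counts), and their median of 0.71 is the midpoint of opposite changes. Splicing genes became 0.044 under median-ratio scaling, 0.043 under DESeq2, 0.069 without rRNA features and 0.0742 in the compared groups alone. Among named genes, ORF scaling gave CSL4 0.44, DIS3 0.24, RRP6 0.12, snR189 0.16, NAB3 0.23, SEN1 0.24 and YRA1 0.35. Overlap-free features alone gave CSL4 0.48, DIS3 0.28, RRP6 0.16, snR189 0.20, NAB3 0.27, SEN1 0.285 and YRA1 0.39. CSL4 was at 0.14 without rRNA features and 0.14 in the compared groups alone, and YRA1 at 0.0244 under median-ratio scaling, 0.0246 under DESeq2, 0.0496 without rRNA features and 0.0546 in the compared groups alone. Locus sums gave NRD1 3.11, IMD2 0.10, URA2 0.0634, and ITS1-1 and ITS2-1 1.34. Their scaling alone adds 0.16 to these sums. The cause of these sign changes was not tested.

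Leaving out each ribo-depleted csl4-ph or control library in turn gave 3498 to 3629 features higher and 4073 to 4249 lower against the control. By at least 2-fold, 2452 to 2506 were higher and 1828 to 1920 lower. In the interaction the ranges were 2642 to 2835 and 2656 to 2888, with no oligo d(T) library left out. Against the other 2 exosome strains only csl4-ph libraries were left out in turn. This gave 2572 to 2621 higher and 2935 to 2952 lower against dis3-1, and 3266 to 3307 and 3410 to 3415 against the rrp6 deletion. How these counts depend on single dis3-1, rrp6 deletion or oligo d(T) libraries was not tested. Replicate numbers are shared by labels, which do not say whether a number marks a shared batch. Deviations of libraries with the same number correlated at -0.01 and 0.002. With 2 control libraries the deviations of that group mirror each other, so these values cannot decide whether a batch is shared. With replicate number as a replicate block 3542 were higher and 4203 lower. Depth limits features near 3 counts, and 2 control libraries limit the spread measured for that group.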

Other observations

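Genes for nuclear transport, which the comparison with the control did not describe, were lower in csl4-ph in 19 of 22 cases and higher in 3, with a median log2 fold change of -0.95. Meiosis genes, which are mostly silent in growing cells, were higher in 4 of 13 cases and lower in 2 (median -0.09), and among the 4 that overlap no other feature 0 were higher and 2 lower. Phosphate starvation genes were higher in 6 of 14 cases and lower in 6 (median -0.13), and among the 9 that overlap no other feature 1 was higher and 6 lower (median -0.40). ORFs that contain an intron, outside ribosomal protein genes, were lower in 100 of 172 cases (58.1%) and higher in 47 (median -0.48), close to the 57.7% lower and the median of -0.45 over all ORFs.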
